A study of Homo sapiens with 30 samples.

Results

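Combined RB1 knockdown and LSD1 inhibition was compared with no treatment in C4-2-tet-shRB cells, a castration-resistant human prostate cancer line whose short hairpin RNA against RB1 is induced by doxycycline. The comparison took 4 of the 30 samples of the series, 2 libraries with both agents and 2 with neither, as their titles give them. The combined group received doxycycline (0.05 µg/ml, 3 days) and then GSK2879552 (10 µM, 24 h). The untreated group received neither agent and carries DMSO in its title. Doxycycline alone (0.05 µg/ml, 3 days) and GSK2879552 alone (10 µM, 24 h) had 2 libraries each, and these 4 gave the single effects against which the joint effect was set. All 8 samples were grown in medium with 5% charcoal-stripped serum, which is low in androgens, and the RNA was sequenced from stranded mRNA libraries. The title of the series poses the question of whether RB1 loss changes the response of castration-resistant prostate cancer to LSD1 inhibition. No cells with a control hairpin received doxycycline, so doxycycline, the hairpin and the loss of RB1 cannot be told apart, and the line is a single one. The labels read as if the inhibitor followed the 3 days of doxycycline, so the combined cells may have had doxycycline for longer than those with doxycycline alone.

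RB1, the retinoblastoma protein, binds E2F transcription factors and holds back genes of DNA replication until cyclin-dependent kinases release it. LSD1, encoded by KDM1A, removes methyl groups from histone H3 and works with the CoREST corepressor and histone deacetylases, which REST recruits to silence neuronal genes in other tissues. In prostate cells LSD1 is also known as a partner of the androgen receptor. GSK2879552 inactivates LSD1 irreversibly by binding its cofactor.

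The libraries held 14515932 to 22326960 reads counted on genes. Mitochondrial protein genes took 2.72% and 3.58% of the reads in the untreated libraries and 3.99% to 4.61% in the other 6. Replicates differed by more than counting error, with a chi-square ratio of 7.88 for the inhibitor pair and 1.61 to 3.56 for the other pairs, where 1 would be counting error alone. CPM are the reads of a gene scaled to library size. All 10 prostate luminal markers were detected, with summed levels of 14461 to 14709 CPM in untreated and 12895 to 13406 CPM in combined libraries. The basal keratins KRT5 and KRT6A had no read in any library, while LAMA3 held most of the summed basal level of 191.1 to 221.7 CPM. Summed leukocyte markers stayed at 1.91 to 3.06 CPM, endothelial markers at 5.58 to 9.59 CPM and fibroblast and smooth muscle markers at 44.6 to 56.4 CPM. In bulk libraries, fewer cells of a type and less RNA per cell cannot be told apart. The labels do not say that replicates were separate cultures, so a p-value here reflects the spread of these libraries alone, which may be technical. Throughout, n is 2 libraries per group, levels are TMM-scaled CPM, changes are log2 fold changes ± SE against the untreated libraries, and a gene rose or fell when its Benjamini-Hochberg adjusted p in edgeR's quasi-likelihood test was under 0.05.

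RB1 mRNA was low in both doxycycline groups. It stood at 23.4 and 26.1 CPM in untreated libraries, at 4.64 and 6.24 CPM with doxycycline, at 32.7 and 22.1 CPM with the inhibitor and at 5.84 and 6.74 CPM with both. The combined and doxycycline libraries lay below every library without doxycycline, and the combined range overlapped that of doxycycline alone. RB1 fell with both agents (log2 -1.98 ± 0.18, adjusted p = 3.17e-06). The departure from the sum of the single effects was 0.03 (95% interval -0.51 to 0.58). KDM1A, the target of the inhibitor, stood at 106 and 108 CPM in untreated and at 102 and 100.1 CPM in combined libraries (log2 -0.08 ± 0.07, adjusted p = 0.504). GSK2879552 acts on the LSD1 protein, so the mRNA level is no check of the inhibition.

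Of 18423 genes tested, 1368 rose (7.43%) and 964 fell (5.23%) with both agents, 12.7% in all. Changes of 2-fold or more made up 192 of the rises and 25 of the falls. With doxycycline alone 783 rose (4.25%) and 661 fell (3.59%), 7.84% in all, and with the inhibitor alone 114 rose (0.619%) and 11 fell (0.0597%), 0.678% in all. These comparisons share the untreated libraries, so their counts are not independent. The joint count depended on single libraries. It was 385 up and 198 down without untreated replicate 1, 624 and 490 without untreated replicate 2, 511 and 242 without combined replicate 2, and 709 and 417 without combined replicate 1. It was 2266 and 2054 without inhibitor replicate 1, and 2184 and 2180 without inhibitor replicate 2, which enter only the estimate of the spread. The joint effect departed from the sum of the single effects, on the log2 scale, in 3 genes (0.0163%), all below the sum. These were MT-ND4L, CTD-2328D6.1 and RNA5-8SP6. DESeq2 called 4, the last 2 of these below the sum, and STC2 and PFKFB4 above it. At an unadjusted p under 0.05 there were 879 genes (4.77%), 464 above and 415 below the sum. The median half-width of the 95% interval of a departure was 0.371, and 0.281 among genes called in the joint effect.

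Beside ZEB1 and MIR30A, the largest rises with both agents were those of AHNAK2, FEZ1, NRXN2, SCN4B, HEY1, LIX1L, AKAP12, HEG1, CDHR1 and KIAA1324. AHNAK2, a very large scaffold protein, stood at 5.52 and 4.58 CPM in untreated libraries, at 4.45 and 3.92 CPM with doxycycline, at 20.4 and 22.5 CPM with the inhibitor and at 27.3 and 24.6 CPM with both. Both inhibitor groups lay far above the groups without it, and the combined libraries were the highest. AHNAK2 rose by 2.37 ± 0.14 with both agents (adjusted p = 1.58e-08). Its single effects were -0.27 with doxycycline and 2.09 with the inhibitor, and the departure of 0.55 (95% interval 0.12 to 0.98) had an adjusted p of 0.984. LIX1L stood at 18.6 and 15.9 CPM in untreated, 13.9 and 12.9 CPM in doxycycline, 64.3 and 59.0 CPM in inhibitor and 58.3 and 58.1 CPM in combined libraries. It rose by 1.75 ± 0.10, where the sum of the single effects was 1.47.

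The neuronal transport adaptor FEZ1 (log2 1.99 ± 0.18 with both, -0.57 with doxycycline, 2.03 with the inhibitor) and the sodium channel subunit SCN4B (log2 1.80 ± 0.16, -0.53 and 1.88) rose with the inhibitor and with both, while their values with doxycycline alone did not pass the test. The kinase anchoring protein AKAP12 stood at 3.38 and 3.62 CPM in untreated, 7.96 and 7.75 CPM in inhibitor and 11.0 and 11.4 CPM in combined libraries. Its joint effect of 1.67 ± 0.15 compared with a sum of 1.00, a departure of 0.67 that was not called (95% interval 0.20 to 1.15, adjusted p = 0.984). In HEY1, HEG1, KIAA1324 and NRXN2 both single effects were positive and near to each other in size. Both passed the test only for HEG1. For KIAA1324 and NRXN2 only that of doxycycline passed, and for HEY1 neither did. The Notch target HEY1 had 1.76 ± 0.27 with both, 0.82 with doxycycline and 0.96 with the inhibitor. The membrane mucin HEG1 had 1.66 ± 0.20, 0.76 and 1.03, and KIAA1324 had 1.64 ± 0.19, 0.97 and 0.77. For NRXN2, a synaptic adhesion molecule, the values were 1.92 ± 0.32, 1.19 and 0.94. The photoreceptor cadherin CDHR1 had 1.65 ± 0.27, with 0.30 for doxycycline and 1.11 for the inhibitor, neither of which passed the test. Departures of HEY1, HEG1, KIAA1324, NRXN2 and CDHR1 lay between -0.21 and 0.24, and none was called.

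ZEB1, a repressor of epithelial genes, had 0 and 1 reads in the untreated libraries and 3 and 2 with doxycycline. It had 88 and 54 reads with the inhibitor and 73 and 91 with both. Only the inhibitor groups held more than a few reads, and ZEB1 passed the filter on low counts through them. The scaled ratio of combined to untreated reads was 139.5, with a 95% interval from 24.7 to 5543 that covers counting error only. MIR30A, a microRNA gene, stood at 2.21 and 2.48 CPM untreated, at 102 and 101 CPM with doxycycline, at 2.53 and 2.06 CPM with the inhibitor and at 95.7 and 101 CPM with both. The doxycycline groups lay above both others. It rose by 5.38 ± 0.12 with both agents, against a sum of 5.42. Inducible hairpin vectors often embed the hairpin in a miR-30 backbone, and whether the MIR30A reads came from the construct was not tested.

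**Figure D1:**
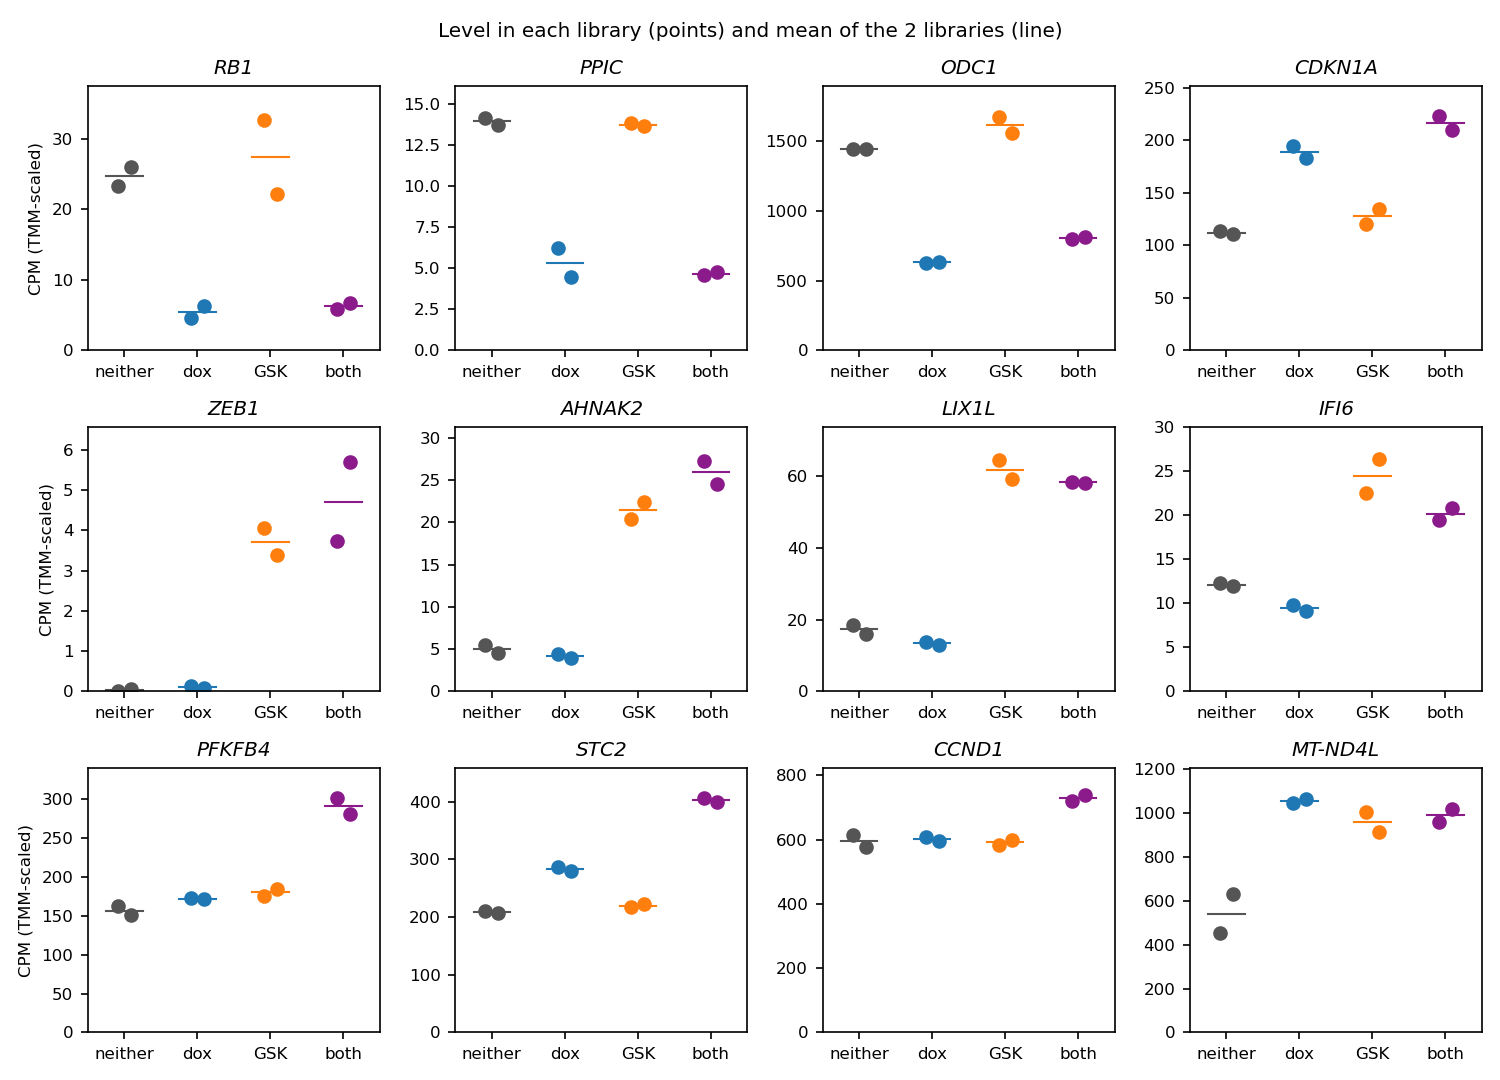
Level of 12 genes in each of the 8 libraries, in TMM-scaled CPM on linear axes from 0. Columns are untreated (neither), doxycycline (dox), GSK2879552 (GSK) and both, points are libraries and lines are means of 2. RB1, PPIC and ODC1 are low in both doxycycline groups, ZEB1, AHNAK2, LIX1L and IFI6 are high in both inhibitor groups, and PFKFB4, STC2 and CCND1 are highest with both.

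The largest falls after RB1 were those of PPIC, LAP3P2, LAP3, C17orf72, ARHGAP31, DBP, RP4-607J23.2, RP11-119B16.2, MAD2L1BP, RWDD1 and ATP6V1G2. PPIC, a cyclophilin of the secretory pathway, stood at 14.1 and 13.7 CPM untreated, at 6.21 and 4.46 CPM with doxycycline, at 13.8 and 13.6 CPM with the inhibitor and at 4.61 and 4.75 CPM with both. The doxycycline groups lay below the others and overlapped each other. PPIC fell with both agents (log2 -1.57 ± 0.16, adjusted p = 6.17e-06) and with doxycycline alone (-1.39), and its value with the inhibitor was -0.02. LAP3, a leucine aminopeptidase, fell with both (log2 -1.19 ± 0.09) and with doxycycline (-1.12), as did MAD2L1BP, which silences the spindle checkpoint (-0.94 ± 0.09 and -0.97), and RWDD1 (-0.94 ± 0.12 and -0.75). The pseudogene LAP3P2 (-1.31 ± 0.28) shares sequence with LAP3, so its value is uncertain. DBP, a circadian transcription factor, had -0.98 ± 0.12 with both, -0.62 with doxycycline and -0.22 with the inhibitor. ARHGAP31, a GTPase-activating protein, had -1.07 ± 0.20, -0.90 and -0.39.

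The proton pump subunit ATP6V1G2 stood at 2.14 and 2.99 CPM untreated, at 2.39 and 2.54 CPM with doxycycline, at 2.58 and 2.31 CPM with the inhibitor and at 1.23 and 1.50 CPM with both. Only the combined libraries lay low. It had -0.93 ± 0.27 with both against a sum of -0.13, and its departure of -0.80 (95% interval -1.55 to -0.05) was not called (adjusted p = 0.984). Its joint call ended without untreated replicate 1 (-1.15) or 2 (-0.67) or combined replicate 1 (-0.78) or 2 (-1.08). The call of ARHGAP31 ended without untreated replicate 1 (-0.95), and that of LAP3P2 without untreated replicate 2 (-0.92) or combined replicate 1 (-1.26). C17orf72 (-1.16) lost its call without untreated replicate 2 (-0.98) or combined replicate 2 (-0.87). RP4-607J23.2 (-0.96) lost it without untreated replicate 1 (-0.63) or combined replicate 1 (-0.66). The call of RP11-119B16.2 (-0.95) ended without any 1 of the untreated or combined libraries (-1.005 to -0.92).

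**Figure D2:**
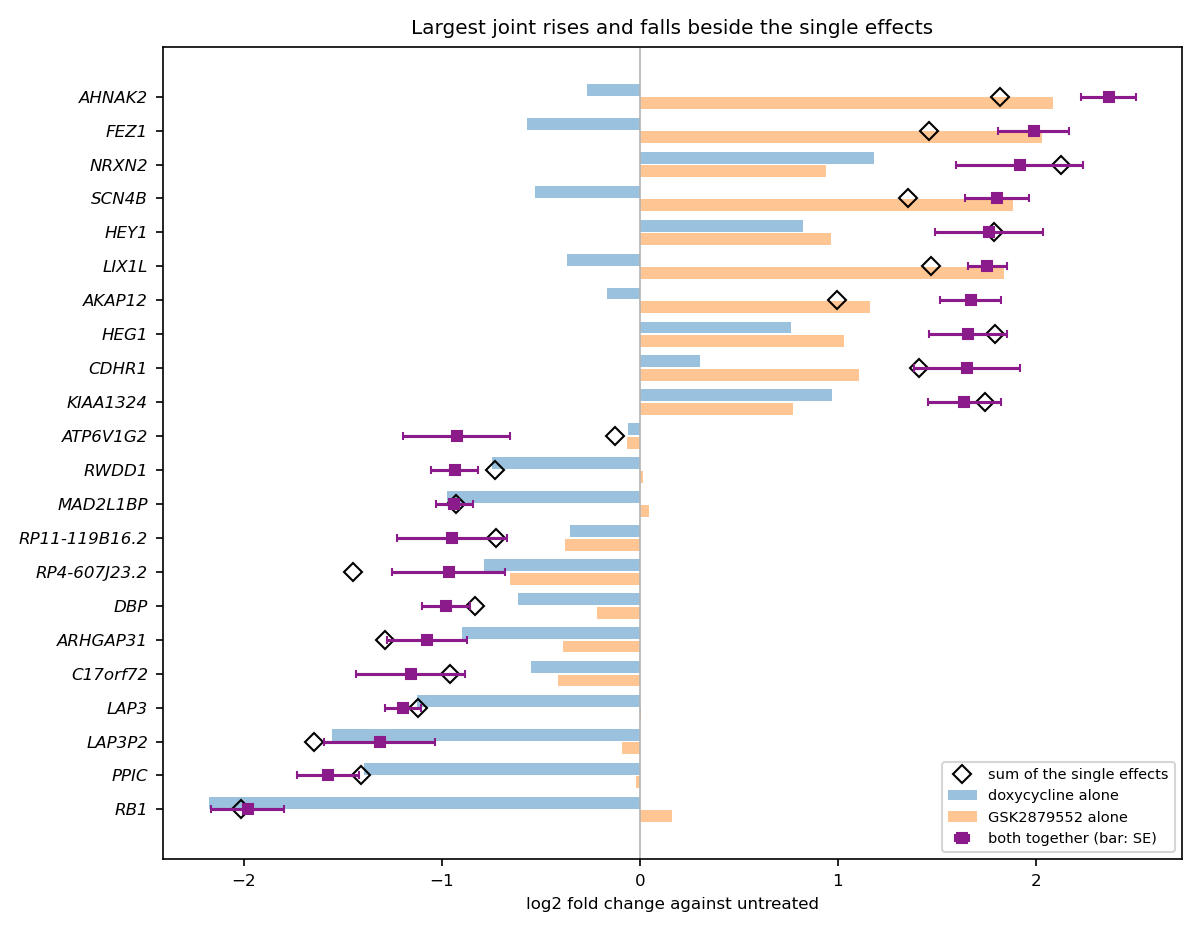
Log2 fold change against untreated of the 10 largest rises, MIR30A and ZEB1 aside, and the 12 largest falls with both agents (squares, bars are SE), beside doxycycline alone, GSK2879552 alone (shaded bars) and the sum of the single effects (diamonds). Rises of AHNAK2, FEZ1, SCN4B and LIX1L sit with the inhibitor bar, falls of RB1, PPIC, LAP3 and MAD2L1BP sit with the doxycycline bar, and the squares of AKAP12 and ATP6V1G2 lie farther from 0 than their diamonds.

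Some E2F-driven genes of DNA replication rose with both agents. Of 55 tested, 16 rose and 0 fell with both, against the 7.43% of all genes that rose. With doxycycline alone 23 rose and 0 fell, where 4.25% of all genes rose. With the inhibitor alone 0 were called by edgeR and 1 lower by DESeq2. At an unadjusted p under 0.05 edgeR had 18 lower and 0 higher with the inhibitor. The share of all genes lower at that threshold was not computed, so the 18 have no background here. The list median was 0.19 with both, 0.31 with doxycycline and -0.12 with the inhibitor, and 0.01, -0.00 and -0.00 over all genes tested. The median of the summed single effects was 0.12 and that of the departures was 0.03, with 0 of 55 departures called and 1 above the sum at an unadjusted p under 0.05. The joint count was 5 without untreated replicate 1, 9 without untreated replicate 2, 6 without combined replicate 2, and 25 and 24 without inhibitor replicate 1 and 2.

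Promoters are shown for DTL and MCM3, E2F-driven genes described next that hold an E2F motif. RB1 is known to act on such genes through sites of this kind. CDK2, also described next, had no promoter entry and was not searched. They are from RefSeq (GRCh38.p14), while the authors' counts use hg19. DTL lies at chr1:212035498-212035797 on the plus strand and MCM3 at chr6:52284693-52284992 on the minus strand, and capitals mark TTTCCCGC or TTTGGCGC, searched on both strands.
DTL: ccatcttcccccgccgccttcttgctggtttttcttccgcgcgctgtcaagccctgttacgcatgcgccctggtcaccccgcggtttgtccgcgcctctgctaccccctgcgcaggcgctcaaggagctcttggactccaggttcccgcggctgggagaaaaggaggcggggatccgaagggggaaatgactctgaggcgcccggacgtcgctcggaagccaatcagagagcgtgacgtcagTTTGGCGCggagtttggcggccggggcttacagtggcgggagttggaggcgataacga
MCM3: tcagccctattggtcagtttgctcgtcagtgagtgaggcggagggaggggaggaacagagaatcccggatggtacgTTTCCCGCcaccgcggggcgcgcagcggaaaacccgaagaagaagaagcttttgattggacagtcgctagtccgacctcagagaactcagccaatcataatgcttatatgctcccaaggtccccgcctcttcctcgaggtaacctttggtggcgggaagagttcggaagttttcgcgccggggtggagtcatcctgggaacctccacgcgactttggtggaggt
The match starts at position -8 from the gene start in DTL and at -174 in MCM3. Either motif occurs in 797 of 35116 promoters of this length (2.27%) and in 380 of the 10394 tested genes with an entry (3.66%). Among genes with an entry called higher with both agents, 34 of 931 held it (3.65%). A promoter entry was found for 43 of the 55 list members, and no share over the list is read because many are missing. A match is a description of the sequence, not a measured binding site.

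DTL, a ubiquitin ligase adaptor of replication control, stood at 19.2 and 22.0 CPM untreated, at 29.5 and 30.1 CPM with doxycycline, at 21.8 and 23.2 CPM with the inhibitor and at 31.8 and 33.5 CPM with both. It rose by 0.66 ± 0.10 with both (adjusted p = 0.000345), and the departure from the sum was 0.01 (95% interval -0.28 to 0.30). CDK2, the kinase that drives entry into S phase, stood at 52.1 and 59.5 CPM untreated, at 86.1 and 86.4 CPM with doxycycline, at 54.2 and 52.4 CPM with the inhibitor and at 79.7 and 78.4 CPM with both. For DTL and CDK2 the doxycycline and combined libraries lay above the other 4. CDK2 rose by 0.50 ± 0.08 with both, against a sum of 0.56. The helicase subunit MCM3 rose by 0.39 ± 0.06 (sum 0.42). E2F1 itself stood at 54.3 and 53.2 CPM untreated, at 74.3 and 69.7 CPM with doxycycline, at 47.8 and 50.2 CPM with the inhibitor and at 64.1 and 58.7 CPM with both. Its combined libraries lay between those of doxycycline alone and untreated, and the joint value of 0.19 ± 0.08 was not called (adjusted p = 0.129, called without inhibitor replicate 1), whereas doxycycline alone had 0.42 ± 0.08 (adjusted p = 0.00343). The departure of E2F1 was -0.09 (95% interval -0.33 to 0.14).

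Calls among genes of mitosis and repair were few and near the shares of all genes, of which 7.43% rose and 5.23% fell. Of 46 G2/M genes 4 rose and 1 fell with both (median 0.08, against 0.15 with doxycycline and -0.12 with the inhibitor). The mitotic kinase AURKB had 0.39 ± 0.09 and topoisomerase TOP2A 0.31 ± 0.08, while MYBL2, which drives mitotic genes, fell (-0.25 ± 0.07). The calls of AURKB (0.36 to 0.41) and TOP2A (0.23 to 0.37) ended without any 1 of the untreated or combined libraries. That of MYBL2 ended without untreated replicate 1 (-0.17), either combined library (-0.32 and -0.20) or either doxycycline library (-0.26). No G2/M gene rose without untreated replicate 1 or combined replicate 2, 1 rose without either of the other untreated and combined libraries, and 7 rose without either inhibitor library. Of 22 homologous recombination and Fanconi genes, the end-resection factor RBBP8 was the 1 that rose (0.55 ± 0.11), and its call ended without untreated replicate 2 (0.48). Without inhibitor replicate 1 and 2, 6 and 5 of these 22 rose.

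Among 25 pocket proteins, E2F factors and CDK inhibitors 4 rose and 3 fell with both agents. Over all genes tested 7.43% rose and 5.23% fell. CDKN1A, the CDK inhibitor p21, stood at 113 and 111 CPM untreated, at 195 and 183 CPM with doxycycline, at 121 and 134 CPM with the inhibitor and at 223 and 210 CPM with both. It rose by 0.95 ± 0.07 (adjusted p = 4.44e-07), with a departure of 0.01 (95% interval -0.20 to 0.22). The repressor E2F7 rose by 0.86 ± 0.13, beside 0.86 with doxycycline alone. Cyclin D1, CCND1, stood at 614 and 577 CPM untreated, at 608 and 596 CPM with doxycycline, at 585 and 599 CPM with the inhibitor and at 721 and 740 CPM with both. Only the combined libraries were high. CCND1 rose by 0.29 ± 0.06 (adjusted p = 0.00295), against a sum of 0.01, and its departure of 0.29 (95% interval 0.12 to 0.46) was not called (adjusted p = 0.857). The joint call ended without untreated replicate 2 (0.24) or combined replicate 2 (0.26). RBL2, the pocket protein of resting cells, fell by 0.46 ± 0.07, and TFDP2, an E2F partner, had -0.29 ± 0.08, a call that ended without any 1 of the untreated or combined libraries (-0.31 to -0.28).

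Of 21 LSD1-CoREST complex genes 0 were called higher and 1 lower, against 7.43% and 5.23% of all genes, and without inhibitor replicate 1 or 2 the counts were 3 and 2. The lower one was MTA2, a subunit of the NuRD deacetylase complex, at 144 and 142 CPM untreated, 91.4 and 94.8 CPM with doxycycline, 129 and 140 CPM with the inhibitor and 89.0 and 81.0 CPM with both. Its doxycycline and combined libraries were low, and it fell by 0.75 ± 0.07 with both and by 0.62 with doxycycline. Among 14 DNA methylation and PRC2 enzymes 4 rose and 2 fell. The rises numbered 0 without untreated replicate 1 or combined replicate 2 and 2 without either of the other untreated and combined libraries, and 1 fell without any 1 of these 4. The methylcytosine oxidase TET3 fell (-0.47 ± 0.07). EZH2, the PRC2 methyltransferase, had 0.38 ± 0.10, a call that ended without untreated replicate 1 (0.27) or combined replicate 2 (0.31), and its chaperone subunit RBBP4 had 0.40 ± 0.08, a call that ended in the absence of the same libraries (0.32 and 0.34).

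ATF4 targets of the integrated stress response, which serve amino acid supply, formed the list with the most calls after the mitochondrial genes, as a share of its members. Over all genes tested 7.43% rose and 5.23% fell with both. Of 34 list members tested 23 rose and 0 fell with both, 21 and 0 with doxycycline, and 1 and 0 with the inhibitor. The median was 0.43 with both, 0.40 with doxycycline and -0.01 with the inhibitor, the median of the sums was 0.37 and that of the departures 0.08. The joint count lay between 17 (without untreated replicate 1) and 27 when 1 library was left out, and DESeq2 called 20. The promoter of ATF3 is printed as the 1 promoter, among those of the 3 ATF4-list genes described next, that holds the ATF4 response motif TGATGNAA, marked in capitals and searched on both strands. It lies at chr1:212565157-212565456 on the plus strand (RefSeq, GRCh38.p14).
ATF3: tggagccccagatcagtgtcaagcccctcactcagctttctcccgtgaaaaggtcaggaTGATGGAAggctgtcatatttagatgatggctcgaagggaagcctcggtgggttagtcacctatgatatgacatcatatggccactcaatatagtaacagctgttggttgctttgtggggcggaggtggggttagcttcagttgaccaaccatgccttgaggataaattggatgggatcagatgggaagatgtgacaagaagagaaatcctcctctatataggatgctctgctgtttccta
The match starts at position -191 from the gene start of this entry. It describes the sequence and is not a measured binding site. A single entry per gene was searched, so other starts of a gene were not. The motif occurs in 1270 of 35116 promoters (3.62%) and in 179 of the 10394 tested genes with an entry (1.72%). Among all genes with an entry called higher with both agents, 21 of 931 held it (2.26%). In the list, 6 of the 28 members with an entry held the motif (21.4%). It was in 4 of the 19 members called higher with both agents and in 2 of the 9 not called, and its letters are not in the windows of STC2 and PSAT1.

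ATF3, a stress-induced transcription factor, stood at 29.3 and 30.2 CPM untreated, at 41.4 and 44.0 CPM with doxycycline, at 43.1 and 39.7 CPM with the inhibitor and at 58.1 and 57.3 CPM with both. Each single agent lay above untreated and the combined libraries lay above all, with a joint effect of 0.95 ± 0.09 against a sum of 1.00. The secreted glycoprotein STC2 stood at 211 and 206 CPM untreated, at 286 and 279 CPM with doxycycline, at 217 and 222 CPM with the inhibitor and at 407 and 399.6 CPM with both. The inhibitor libraries lay just above the untreated ones, and the combined libraries well above doxycycline alone. STC2 rose by 0.95 ± 0.06 (adjusted p = 4.45e-08) against a sum of 0.51. Its departure of 0.44 ± 0.08 was not called (adjusted p = 0.207), and was called by DESeq2 (0.43) and by edgeR without inhibitor replicate 1 (0.41) or 2 (0.45). The serine synthesis enzyme PSAT1 rose by 0.70 ± 0.06, close to its sum of 0.67.

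Endoplasmic reticulum chaperone and stress genes rose in 8 of 23 cases and fell in 1, with 2 to 11 rises when 1 library was left out (2 without untreated replicate 1, 5 without untreated replicate 2, 4 and 3 without combined replicate 1 and 2). The degradation factor HERPUD1 (0.45 ± 0.06) and the transcription factor XBP1 (0.35 ± 0.06) rose, while HSPA5, the main chaperone of the organelle, fell (-0.56 ± 0.05, adjusted p = 5.96e-06) from 1366 and 1385 CPM untreated to 934 and 938 CPM with both. It had 967 and 970 CPM with doxycycline and 1412 and 1345 CPM with the inhibitor, so the groups with and without doxycycline did not overlap. Of 20 cytosolic aminoacyl-tRNA synthetases 3 rose and 2 fell, near the 7.43% and 5.23% of all genes. The rises numbered 0 without untreated replicate 1 or combined replicate 1 and 1 without untreated replicate 2 or combined replicate 2, and 1 fell without untreated replicate 1 or either combined library. KARS, for lysine, fell (-0.37 ± 0.07), and MARS, for methionine, had 0.31 ± 0.06, a call that ended without untreated replicate 1 (0.27) or combined replicate 1 (0.26).

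Sterol and fatty acid genes rose in part, where 7.43% of all genes rose and 5.23% fell with both agents. Of 26 sterol synthesis and SREBP genes 9 rose and 0 fell (7 and 0 with doxycycline, 0 and 0 with the inhibitor), with medians of 0.18, 0.15 and 0.02. The count was 3 without untreated replicate 1 or 2, 5 and 4 without combined replicate 1 and 2, and 13 and 12 without inhibitor replicate 1 and 2. INSIG1, the sterol sensor, rose by 0.63 ± 0.07 and the sterol oxidase MSMO1 by 0.74 ± 0.12. Of 14 fatty acid genes 5 rose and 1 fell, and 1 rose without untreated replicate 1, 2 without combined replicate 2 and 8 without either inhibitor library. The desaturase FADS1 rose by 0.53 ± 0.06, and ACLY, which makes acetyl-CoA from citrate, fell by 0.48 ± 0.05. The elongase ELOVL5 stood at 152 and 183 CPM untreated, 164 and 168 CPM with doxycycline, 280.4 and 247 CPM with the inhibitor and 205 and 227 CPM with both. Its combined libraries lay between those of the inhibitor and the rest. The joint value of 0.36 ± 0.09 was lower than the sum of 0.64, with a departure of -0.28 that was not called, and the joint call ended without untreated replicate 1 (0.22) or combined replicate 2 (0.28).

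Glycolysis and hypoxia genes were the list in which joint values most often lay above the sum. Over all genes tested 7.43% rose and 5.23% fell with both, and 4.25% rose and 3.59% fell with doxycycline. Of 28 list members tested, 14 rose and 3 fell with both, 5 rose and 6 fell with doxycycline, and 0 were called with the inhibitor. DESeq2 gave 12 and 3 of them for both agents. The median was 0.15 with both, -0.09 with doxycycline and 0.08 with the inhibitor. The median of the sums was 0.00 and that of the departures 0.19, against 0.01 over all genes. At an unadjusted p under 0.05, 14 of 28 departures lay above the sum and 0 below. Among all 18423 genes tested, 464 lay above and 415 below at that threshold. At an adjusted p under 0.05 edgeR called 0 of the 28, and DESeq2 called that of PFKFB4 (0.55). With 1 library left out the count of joint rises lay between 9, without untreated replicate 1, and 14.

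PFKFB4, which makes the activator of phosphofructokinase, stood at 163 and 151 CPM untreated, at 172 and 172 CPM with doxycycline, at 176 and 185 CPM with the inhibitor and at 301 and 281 CPM with both. The 3 other groups lay close together and only the combined libraries were high. PFKFB4 rose by 0.89 ± 0.07 (adjusted p = 4.4e-07), against a sum of 0.34. Its departure of 0.56 (95% interval 0.36 to 0.76) was not called (adjusted p = 0.0737). EGLN3, an oxygen-sensing prolyl hydroxylase, stood at 57.2 and 55.7 CPM untreated, at 67.8 and 68.9 CPM with doxycycline, at 62.8 and 60.1 CPM with the inhibitor and at 102 and 100.5 CPM with both. The combined libraries again lay above the other 6, with a joint effect of 0.84 ± 0.07 against a sum of 0.40. The departure of 0.44 (95% interval 0.23 to 0.66) was not called (adjusted p = 0.54). PFKFB3, a relative of PFKFB4, rose by 0.86 ± 0.07 against a sum of 0.56. PPFIA4, a liprin that is not on the list, stood at 48.4 and 48.2 CPM untreated and at 80.9 and 72.7 CPM with both, and between 49.1 and 51.2 CPM in the 4 libraries of the single agents. It rose by 0.67 ± 0.08 against a sum of 0.10, and its departure of 0.57 was not called (adjusted p = 0.207).

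Among the 3 genes of this list that fell were core enzymes, and 1 fell without untreated replicate 1 or combined replicate 2. GAPDH stood at 5844 and 5661 CPM untreated, at 4355 and 4245 CPM with doxycycline, at 5696 and 5745 CPM with the inhibitor and at 4799.6 and 4516 CPM with both. Its combined libraries lay below untreated and above doxycycline alone. GAPDH fell by 0.30 ± 0.05 (adjusted p = 0.000987) and its departure was 0.12 (95% interval -0.03 to 0.28). The aldolase ALDOA fell by 0.34 ± 0.06 against a sum of -0.56, a call that ended without untreated replicate 1 (-0.28) or combined replicate 2 (-0.29).

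Genes of the mitochondrial genome showed the opposite pattern, with joint values far below the sum. Over all genes tested 7.43% rose with both, 4.25% with doxycycline and 0.619% with the inhibitor. Of 13 mitochondrial protein genes 11 rose with both, 12 with doxycycline and 12 with the inhibitor, and the medians were 0.50, 0.59 and 0.55. The median of the sums was 1.14 and that of the departures -0.71. At an unadjusted p under 0.05 all 13 departures lay below the sum, against 415 of all 18423 genes tested, and 1 of the 13 was called. MT-ND4L, a subunit of respiratory complex I, stood at 454 and 630.4 CPM untreated, at 1048 and 1066 CPM with doxycycline, at 1005 and 912 CPM with the inhibitor and at 962 and 1018 CPM with both. The untreated libraries differed from each other by more than those of any other group and were the lowest, and the 3 treated groups lay close together. It rose by 0.87 ± 0.10 with both against a sum of 1.79, a departure of -0.92 ± 0.14 (adjusted p = 0.039). MT-ND1 (0.53 ± 0.11, sum 1.28) and MT-ATP8, a subunit of ATP synthase (0.80 ± 0.16, sum 1.92), had departures of -0.74 and -1.12 that were not called. Every single effect and sum on these genes rests on the 2 untreated libraries, whose mitochondrial shares were the lowest. The count of joint rises was 3 without untreated replicate 1, 4 without combined replicate 2 and 8 to 12 without any other library, and DESeq2 called 4. The call of MT-ATP8 ended without untreated replicate 1 (0.47) and in DESeq2 (0.79, adjusted p = 0.0586). The part of the untreated libraries in this pattern was not tested further.

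The other departures called were those of CTD-2328D6.1 and RNA5-8SP6, both below the sum. CTD-2328D6.1, a transcript without an established name, stood at 82.7 and 100.2 CPM untreated, at 133 and 125 CPM with doxycycline, at 127 and 145 CPM with the inhibitor and at 99.9 and 91.7 CPM with both. Each single agent lay above untreated and the combined libraries overlapped untreated. Its joint value was 0.07 ± 0.09 (adjusted p = 0.694) against a sum of 1.06, a departure of -0.995 ± 0.13 (adjusted p = 0.00456). RNA5-8SP6, a ribosomal RNA pseudogene whose reads may be shared with its relatives, had a joint value of -0.48 against a sum of 1.08, a departure of -1.56 ± 0.19 (adjusted p = 0.00456). The departure of MT-ND4L lost its call in DESeq2 (-0.92) and in a fit with a replicate block (-0.93). That call also ended without either doxycycline library (-0.94 and -0.92) or either combined library (-0.89 and -0.97). The departures of CTD-2328D6.1 and RNA5-8SP6 lost their calls without untreated replicate 1 (-0.88 and -1.47) or combined replicate 2 (-0.95 and -1.50). The number of departures called was 195 without inhibitor replicate 1 (70 above, 125 below) and 76 without inhibitor replicate 2 (36 above, 40 below), the pair with the largest difference between replicates, and 15 without untreated replicate 2.

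**Figure D3:**
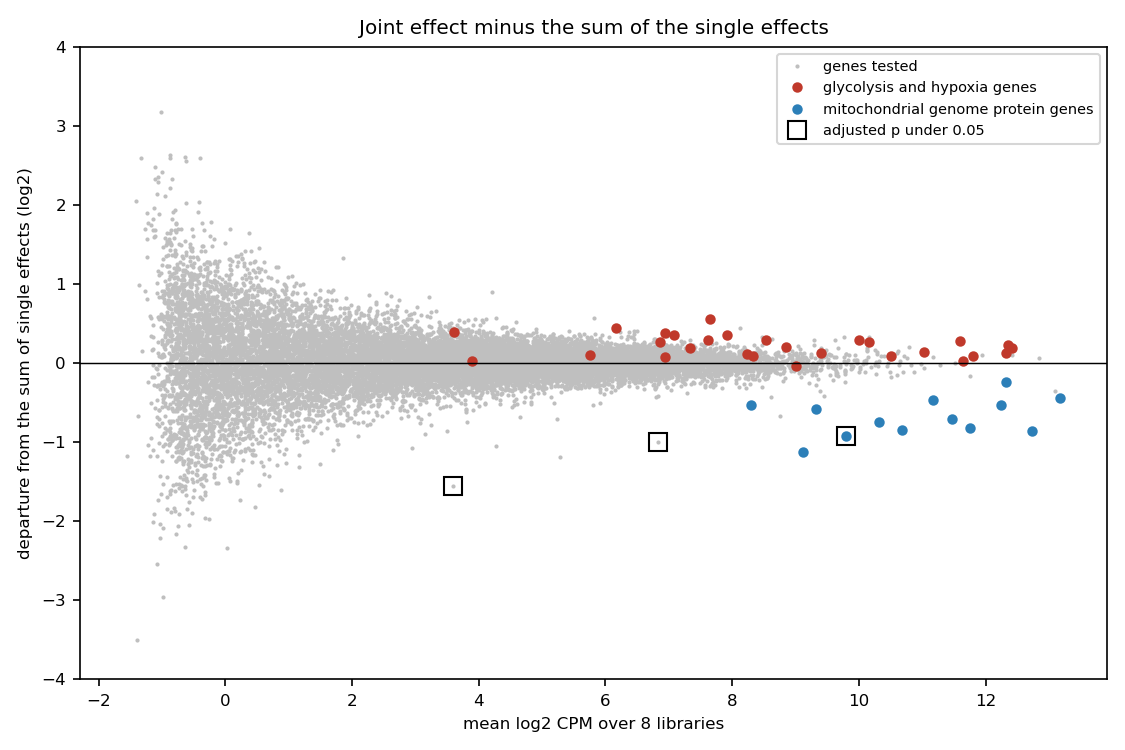
Departure of the joint effect from the sum of the single effects (log2, vertical axis) against mean level over the 8 libraries (log2 CPM, horizontal axis) for each gene tested. Glycolysis and hypoxia genes lie mostly above 0, the 13 mitochondrial genes lie below 0, squares mark the 3 genes called, and 3 genes fall outside the axis.

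Some androgen-induced genes rose with both agents, and falls among them were few. Over all genes tested 7.43% rose and 5.23% fell with both. Of 40 androgen-induced genes 10 rose and 3 fell with both, 6 rose and 6 fell with doxycycline, and 2 rose with the inhibitor. The joint rises numbered 6 without untreated replicate 1 or combined replicate 2, and 17 without either inhibitor library. The vesicle GTPase RAB3B (0.61 ± 0.07) and TSC22D3 (0.52 ± 0.06), a glucocorticoid-induced regulator, rose. The protease gene TMPRSS2 fell from 1175 and 1222 CPM to 945 and 921 CPM (-0.36 ± 0.05), as did the kinase CAMKK2 (-0.39 ± 0.06). KLK3, which encodes PSA, stood at 7774 and 7594 CPM untreated, at 6368 and 6201 CPM with doxycycline, at 8227 and 8356 CPM with the inhibitor and at 7279 and 6837 CPM with both. Its joint value of -0.12 ± 0.05 was not called (adjusted p = 0.13), and was called with no filter on low counts (adjusted p = 0.0258) and without inhibitor replicate 2 (adjusted p = 0.0394). Of 11 androgen-repressed genes 3 rose and 1 fell. Without untreated replicate 1 only 1 rose, without either inhibitor library 5 did, and 0 fell without untreated replicate 2 or any 1 of the doxycycline and combined libraries. The kinase inhibitor CAMK2N1 rose by 0.49 ± 0.06. Of the 10 luminal markers 1 rose and 4 fell (2 without untreated replicate 1 or combined replicate 2, up to 6 without inhibitor replicate 2), among them FOLH1, the prostate-specific membrane antigen (-0.34 ± 0.07).

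Some p53 targets rose with both agents. Of 24 p53 targets 7 rose and 0 fell (4 and 0 with doxycycline, and 3 to 10 rises with both when 1 library was left out, 3 without untreated replicate 1 and 4 without either combined library), including the cytokine GDF15 (0.57 ± 0.09) and the death receptor TNFRSF10B (0.47 ± 0.06). Of 20 BCL2 family members and apoptosis inhibitors 2 rose and 0 fell, near the 7.43% of all genes that rose. The BH3-only protein PMAIP1 stood at 2.14 and 2.48 CPM untreated, at 5.91 and 5.98 CPM with doxycycline, at 2.94 and 3.00 CPM with the inhibitor and at 6.86 and 5.06 CPM with both. The combined range held that of doxycycline alone, and the joint effect was 1.38 ± 0.21 against a sum of 1.72. The apoptosis inhibitor BIRC3 had 0.69 ± 0.13, a call that ended without untreated replicate 1 (0.66).

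Over all genes tested 7.43% rose and 5.23% fell with both agents, the background for each list that follows here. Interferon-stimulated genes split, with 5 of 33 higher and 6 lower (4 and 3 in DESeq2). The count of rises was 1 without either untreated library and 2 without either combined library, and the falls numbered 1 without untreated replicate 1, 3 without combined replicate 1 and 2 without combined replicate 2. IFI6 stood at 12.3 and 12.01 CPM untreated, at 9.82 and 9.10 CPM with doxycycline, at 22.6 and 26.5 CPM with the inhibitor and at 19.5 and 20.8 CPM with both. Both inhibitor groups were high, and IFI6 rose by 0.73 ± 0.12 with both. STAT2, the signal transducer of type I interferon, fell by 0.54 ± 0.08. The ubiquitin-like ISG15 had -0.62 ± 0.12, a call that ended without untreated replicate 1 (-0.56) or combined replicate 2 (-0.49). Of 19 epithelial-mesenchymal state genes 6 rose and 1 fell, and 2 rose without either untreated library and 3 without either combined library. ZEB1 is 1 of the 6, and it passed the filter on low counts only through the inhibitor groups, where it was high. Besides ZEB1, occludin OCLN, an epithelial junction protein, rose by 0.55 ± 0.08. The mesenchymal filament VIM had 0.44 ± 0.10 with both, -0.30 with doxycycline and 0.60 with the inhibitor. The joint call of VIM ended without untreated replicate 1 (0.43) or 2 (0.43) or combined replicate 2 (0.39). Smooth muscle actin ACTA2 rose by 1.15 ± 0.24 from 1.86 and 1.59 CPM to 3.53 and 4.18 CPM, the 1 called gene of 6 fibroblast and smooth muscle markers tested, and lost its call without untreated replicate 2 (1.03) or combined replicate 2 (1.02). Of 9 neuroendocrine markers tested 1 rose, PEG10, at 0.41 ± 0.11, a call that ended without any 1 of the untreated or combined libraries (0.34 to 0.46).

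Replication-dependent histone genes, whose mRNAs mostly lack poly(A) tails, rose in 15 of 35 cases and fell in 0 (8 and 0 with doxycycline, 0 and 0 with the inhibitor). Of 57 on the list 35 passed the filter on low counts. The median was 0.52 with both against 0.45 for the sums, with 9 called by DESeq2. The count was 4 and 6 without untreated replicate 1 and 2, and 9 and 7 without combined replicate 1 and 2. HIST1H2BJ rose by 1.08 ± 0.13 from 8.14 and 9.91 CPM untreated to 19.7 and 18.5 CPM, with 23.0 and 21.0 CPM under doxycycline and 9.15 and 7.69 CPM under the inhibitor. HIST1H2BK rose by 0.88 ± 0.08 against a sum of 1.26, and reads shared within the family leave these values uncertain. Of 18 immediate early genes 7 rose and 1 fell (5 and 0 in DESeq2), against 7.43% and 5.23% of all genes. The fall was that of FOSB (-1.58 ± 0.41), at 1.31 and 1.91 CPM untreated and 0.46 and 0.62 CPM with both. Its call ended without any 1 of the untreated or combined libraries (-1.83 to -1.29). The phosphatase DUSP1 stood at 31.3 and 33.4 CPM untreated, at 50.2 and 47.1 CPM with doxycycline, at 46.9 and 51.0 CPM with the inhibitor and at 59.1 and 58.6 CPM with both. Its joint effect of 0.86 ± 0.09 was below the sum of 1.18, with a departure of -0.32 that was not called (adjusted p = 0.984). The transcription factor KLF4 rose by 0.92 ± 0.11 against a sum of 1.26.

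Of 10 polyamine genes 2 rose and 4 fell, but 0 and 1 without untreated replicate 1 or combined replicate 2, 1 and 1 without untreated replicate 2, and 1 and 2 without combined replicate 1. ODC1, ornithine decarboxylase and the first enzyme of the pathway, stood at 1447 and 1442 CPM untreated, at 629 and 634 CPM with doxycycline, at 1671 and 1561 CPM with the inhibitor and at 797 and 815 CPM with both. The combined libraries lay far below untreated and above doxycycline alone. ODC1 fell by 0.84 ± 0.06 (adjusted p = 9.55e-08) with both and by 1.19 with doxycycline alone. The departure of 0.19 (95% interval 0.03 to 0.36) was not called (adjusted p = 0.984). AZIN1, which frees ornithine decarboxylase from its antizyme, had 0.44 ± 0.09, a call that ended without untreated replicate 1 (0.33) or combined replicate 2 (0.35). Of 11 genes known to respond to LSD1 inhibitors in myeloid cells, 2 passed the filter on low counts, and neither was called.

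**Figure D4:**
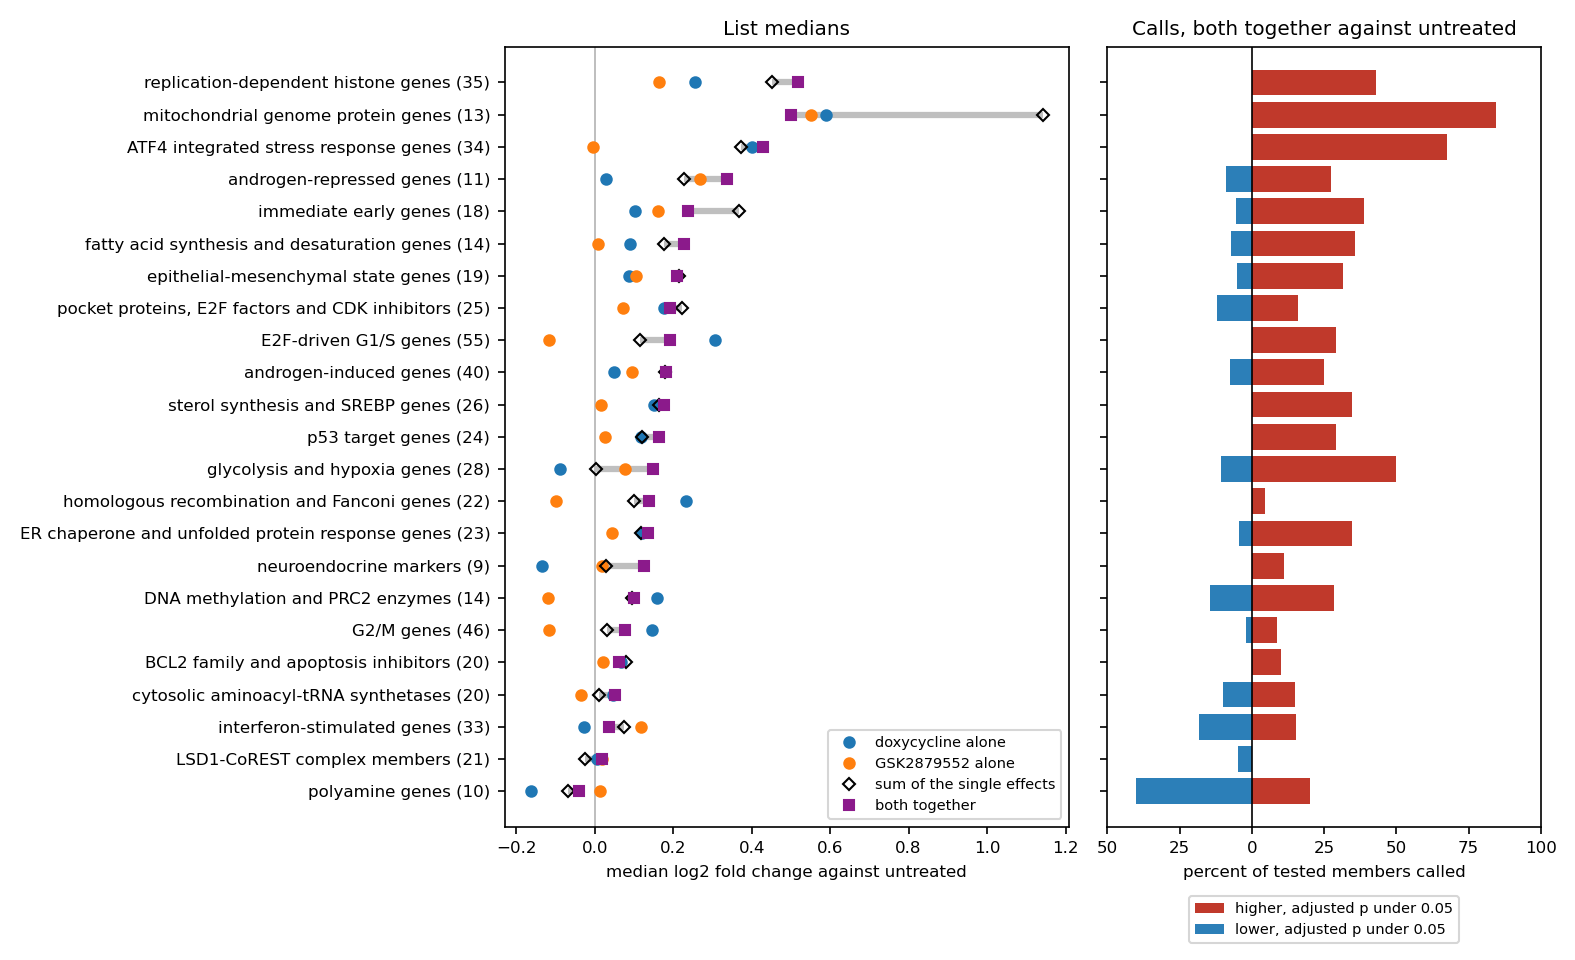
Left, median log2 fold change of gene lists against untreated with doxycycline alone, GSK2879552 alone and both, and the median of the summed single effects (number of genes tested in brackets). Right, percent of tested members higher or lower with both agents. Marker lists of other cell types, luminal markers and the myeloid list are not drawn. Among the lists drawn, joint and summed medians lie apart most for the mitochondrial genes (0.50 and 1.14) and next for glycolysis and hypoxia genes (0.15 and 0.00).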

How the data were processed

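RNA-seq counts of 8 C4-2-tet-shRB libraries were analysed. The authors deposited raw counts per Ensembl gene, made with STAR 2.7.2 and featureCounts 1.6.4 on hg19 (FastQC 0.11.9 for quality), per the submitters' processing notes. The strand setting and annotation version are not given in the sources used here.

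All 8 libraries (14515932 to 22326960 counted reads) were fitted together in edgeR 4.0.16 (R 4.3.3) with 1 coefficient per group, TMM scaling, filterByExpr (18423 of 57773 genes kept) and the quasi-likelihood F test, adjusted by Benjamini-Hochberg over all genes tested and called under 0.05. The contrasts were both agents, doxycycline alone and the inhibitor alone against untreated, and the departure, combined minus doxycycline minus inhibitor plus untreated. Each SE was the size of the log2 change over the root of its F statistic. The chi-square ratio used genes with at least 10 counts. The procedure was tested on simulated data. Alternatives were DESeq2 1.42.0, RLE scaling, no filter, no mitochondrial genes, a replicate block, the 4 untreated and combined libraries alone, and leaving out each library.

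The genes named are RB1, KDM1A, KLK3 and E2F1, the 12 largest rises and 12 largest falls called with mean log2 CPM of at least 1, the called and next 4 departures per direction by p, and up to 3 called members per list and direction by p, not all of which are printed. The members and gene lists were chosen with earlier results of these data known. Counting intervals cover counting error only.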

Additional observations from a re-analysis of the deposited data

Results flagged for a closer look

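The effect of GSK2879552 differed between cells with and without doxycycline for MT-ND4L, by the edgeR test of the interaction, with a difference of -0.92 on the log2 scale (adjusted p = 0.039). The inhibitor raised it without doxycycline (0.82) and the sum of both single effects was 1.79, while the joint effect was 0.87. This call ended in DESeq2 (-0.92, adjusted p = 0.507) and with a replicate block (-0.93). It also ended without either doxycycline library (-0.94 and -0.92) or either combined library (-0.89 and -0.97). The untreated libraries stood at 454 and 630.4 CPM. CTD-2328D6.1 differed in the same way, by -0.995 (adjusted p = 0.00456), with a joint value of 0.07 that was not called against a sum of 1.06, and its call ended without untreated replicate 1 (-0.88) or combined replicate 2 (-0.95).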

How the results depend on the processing

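The directions of all named joint effects were kept under DESeq2, RLE scaling, no filter, no mitochondrial genes, the block and the 4-library fit. Among the named genes, 5 lost their joint call in DESeq2 and 16 with the replicate block, among them ATP6V1G2, RP11-119B16.2, RP4-607J23.2, TOP2A and MYBL2. The 5 leave out genes to which DESeq2 gave no adjusted p, such as ZEB1, NRXN2 and HEY1, whose calls it neither kept nor ended. The 1 reversal was that of CTD-2328D6.1, from 0.07, not called, to -0.074 without untreated replicate 1 (up to 0.20 without untreated replicate 2), where the lone library of a group is assumed to vary like the others, and the cause was not tested. Genes called for the joint effect were 959 higher and 815 lower with DESeq2 against 1368 and 964 with edgeR. With 1 library left out they ranged from 385 to 2266 higher and from 198 to 2180 lower, departures from 0 to 195, doxycycline calls from 279 to 3200 and inhibitor calls from 41 to 1735. Without a filter on low counts there were 39 departures and 330 inhibitor calls. The 4 untreated and combined libraries alone gave 1895 genes lower. With the replicate block 602 genes were lower with both agents, 908 were called for doxycycline and 2 for the departure, that of MT-ND4L (-0.93, adjusted p = 0.0739) being lost. Correlations of the difference between replicates 1 and 2 across groups were -0.12 to 0.04 over all genes tested. Counting error enters each difference, so these cannot decide whether a replicate number marks a shared culture or day. With 2 libraries per group the median SE was 0.127 for a joint effect and 0.176 for a departure.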

Other observations

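The departure from the sum was called for 27 genes both without inhibitor replicate 1 and without inhibitor replicate 2, all with the same sign in both, and these genes were chosen after their values were seen. In the fit of all 8 libraries 3 of them were called. Those above the sum were EGFR, the epidermal growth factor receptor (0.33 with all libraries), ANKZF1, a factor of ribosome quality control (0.40), STC2, EGLN3, PFKFB4, PPFIA4 and the signal recognition particle RNA copy RN7SL2 (0.90). Below the sum, beside mitochondrial genes, were RNA5-8SP6, CTD-2328D6.1, MTND4P12 (-1.05) and hsa-mir-6723 (-0.42). LRRC26, a potassium channel subunit (-1.18), and NDUFB4, a nuclear-encoded subunit of complex I (-0.42), also lay below it. So did PPAP2A, a lipid phosphatase (-0.35), and HIST1H2BK (-0.38). For LRRC26 the value was -1.67 without inhibitor replicate 1 and -0.57 without replicate 2. These remain values in which both fits share 7 of their libraries with the full fit, and they are not independent support.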
